A study of Mus musculus with 8 samples.

Results

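The genes that lie around Lats2 on mouse chromosome 14 were compared between Lats2-/- and Lats2+/+ fibroblasts. The stretch was defined by position alone. It reaches 20 Mb to either side of the Lats2 probes, from 36644080 to 76676571 on chromosome 14 in the mm8 build, in which the 4 Lats2 probes span chr14:56644080-56676571. Probes that the array names Lats2, or Rnase4, Ang and Ang1 of the angiogenin locus, were left out, 7 probes in all. This gave 806 of the 41174 gene probes of the array, carrying 567 gene names. Of these, 410 probes from 273 genes were kept because 2 or more of the 3 extracts of either genotype were well above background, against 22642 kept probes on the whole array. The kept probes lay on both sides of Lats2, 216 toward lower coordinates and 194 toward higher coordinates.

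The cells were mouse embryonic fibroblasts (MEFs), cultured without treatment, of the strain named C57BL/6J in the labels for both genotypes. Wild-type and knockout cells came from litters 112, 116 and 121, with 1 clone of each genotype per litter, so that 6 extracts were measured, and each clone stands for its genotype in its litter. Both extracts of a litter shared each 2-colour Agilent array, with dyes swapped within each litter, and there were 2 arrays each for litters 112 and 116 and 4 for the last. Litters 112 and 116 lay on 1 slide and litter 121 on the other. Every log2 ratio is Lats2-/- over Lats2+/+, the arrays of a litter were averaged, and n is 3 litters throughout. An exact sign permutation test of 1 probe over 3 litters cannot give a two-sided p below 0.25, so p values are from limma, which pools the spread over all kept probes, and are given unadjusted and adjusted. In each channel 52.9% to 61.3% of gene probes were well above background. All 9 fibroblast markers were above background on more than 4 of 8 arrays in both genotypes, while none of the 4 epithelial and none of the 4 skeletal muscle markers on the array was. Among 6 blood cell markers, 2 were above background in Lats2-/- and 4 in Lats2+/+ cells, with Ptprc on no array.

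Lats2 is a kinase at the end of the Hippo cascade that phosphorylates the co-activators YAP and TAZ and so keeps them from working with TEAD transcription factors in the nucleus. A targeted allele is inherited together with the chromosome around it, and the genes next to it may also share promoters, enhancers or read-through transcripts with it. A map of the neighbours therefore asks whether ratios between knockout and wild-type cells depend on distance from the deleted gene. The stretch holds genes of many kinds: connexins and the nuclear export receptor gene Xpo4 close to Lats2, clusters of ribonucleases and of granzymes on the side of lower coordinates, and secreted and matrix genes such as Clu, Stc1 and Loxl2 on the other side.

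Upstream sequence is shown for 4 members. Sap18 was chosen as the nearest gene on the side of higher coordinates, and Wdhd1 because it was under 0 in every litter. Esd and Lrch1 were chosen because their probes, though not their upstream windows, lie close together and their mean ratios had opposite signs. Each sequence is the 250 bases before the transcription start, 5′ to 3′ on the strand of the gene. It is from RefSeq on GRCm38.p6, a later build than the mm8 of the probes. The coordinates are chr14:57797939-57798188 on the plus strand for Sap18, chr14:47276858-47277107 on the minus strand for Wdhd1, chr14:74732047-74732296 on the plus strand for Esd and chr14:74947878-74948127 on the minus strand for Lrch1. Capitals mark the GC box GGGCGG on either strand.
Sap18: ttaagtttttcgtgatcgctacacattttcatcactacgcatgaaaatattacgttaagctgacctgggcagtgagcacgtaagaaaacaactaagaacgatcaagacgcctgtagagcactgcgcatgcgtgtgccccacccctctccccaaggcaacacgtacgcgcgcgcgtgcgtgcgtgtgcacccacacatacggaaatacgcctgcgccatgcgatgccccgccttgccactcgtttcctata
Wdhd1: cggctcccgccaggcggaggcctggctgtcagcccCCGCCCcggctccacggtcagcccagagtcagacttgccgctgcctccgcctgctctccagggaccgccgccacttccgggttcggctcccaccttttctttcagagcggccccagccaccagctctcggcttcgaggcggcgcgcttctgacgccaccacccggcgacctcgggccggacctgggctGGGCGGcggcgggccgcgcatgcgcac
Esd: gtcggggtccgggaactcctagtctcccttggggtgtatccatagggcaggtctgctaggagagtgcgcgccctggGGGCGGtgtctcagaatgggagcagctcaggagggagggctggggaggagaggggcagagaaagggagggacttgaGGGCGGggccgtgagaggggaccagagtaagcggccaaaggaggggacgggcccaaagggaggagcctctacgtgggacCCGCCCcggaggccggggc
Lrch1: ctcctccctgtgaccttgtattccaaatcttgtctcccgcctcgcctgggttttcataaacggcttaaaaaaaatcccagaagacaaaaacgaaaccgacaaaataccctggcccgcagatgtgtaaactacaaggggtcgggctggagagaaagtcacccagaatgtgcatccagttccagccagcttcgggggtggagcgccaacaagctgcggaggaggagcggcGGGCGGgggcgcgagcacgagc

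The GC box, a site known for Sp1 and related factors, occurs 2 times in the Wdhd1 window, 3 times in that of Esd, 1 time in that of Lrch1 and 0 times in that of Sap18. It is held by 32.7% of all 32851 promoter windows of this length and by 99 of the 196 windows that matched member genes (50.5%). The member genes were kept for signal above background, which was not asked of all windows, so these sets are not alike. The TEAD core GGAATG and the CCAAT box CCAAT, also searched on both strands, were in none of the 4 windows. Of the 196 member windows 8.67% and 31.6% hold them, against 12.6% and 33.8% of all windows. Of the 273 kept genes, 155 matched a promoter entry. Xpo4, Clu and Ptk2b, which carry results below, had no match. G and C made up 53.2% of the Sap18 window and 74.8% of the Wdhd1 window, against a median of 52.4% over all windows.

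Lats2 itself served as the anchor of the map. Its most upstream probe, A_52_P425064, was lower in Lats2-/- cells in every litter, with log2 ratios of -1.33 in litter 112, -1.05 in litter 116 and -0.56 in litter 121, while its 3 downstream probes at 56644080 to 56645246 had ratios below 0 in both other litters and of 0.80 to 1.17 in litter 121. The downstream probes were thus above wild type in the knockout extract of litter 121 alone. Whether any of these probes lies within the deleted part, and from which strain the targeted chromosome came, was not given in the sources used here.

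Close to Lats2 on the side of lower coordinates, Xpo4 and the transcript beside it were modestly lower in the knockout cells of all 3 litters. Xpo4 encodes exportin 4, a nuclear transport receptor, and its nearest probe ends 93 kb from the Lats2 probes. The Xpo4 probe A_52_P247366 (chr14:56535503-56535562, minus strand) had normalized log2 signals of 7.39, 7.19 and 7.27 in the Lats2-/- extracts and 7.70, 7.61 and 7.73 in the Lats2+/+ extracts of litters 112, 116 and 121. All 3 knockout extracts lay below all 3 wild-type extracts, and the ratio was below 0 on 8 of 8 arrays. The log2 ratios were -0.31, -0.42 and -0.46, on average -0.39 ± 0.08 (SD, n = 3) and 1.31-fold lower (limma, unadjusted p = 0.0181, adjusted p = 0.711). The other Xpo4 probe, A_52_P489079, was dimmer and had ratios of -0.21, -0.27 and -0.27 in litters 112, 116 and 121 (limma, unadjusted p = 0.0622, adjusted p = 0.712). Its signals did not overlap between the genotypes either. The expressed sequence tag CB590298, 112 kb from Lats2 and next to the Xpo4 probes, had ratios of -0.31, -0.54 and -0.49 in the same order (limma, unadjusted p = 0.015, adjusted p = 0.711). Further out, at 853 kb, the predicted gene LOC219106 had ratios of -0.38, -0.91 and -0.58 (limma, unadjusted p = 0.0145, adjusted p = 0.711). Leaving out 1 litter moved the unadjusted p of Xpo4 A_52_P247366 to between 0.0599 and 0.092. Fewer cells of a type and less RNA per cell cannot be told apart in these bulk extracts.

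On the side of higher coordinates the nearest gene, Sap18, differed widely between litters. Sap18 encodes a subunit of the Sin3 histone deacetylase complex and of the exon junction splicing complex ASAP. Its probe A_51_P386031 (chr14:56758953-56759012, plus strand), 82 kb from Lats2, had log2 signals of 9.71, 8.99 and 12.40 in the Lats2-/- extracts and of 9.76, 10.05 and 9.85 in the Lats2+/+ extracts of litters 112, 116 and 121. The wild-type extracts were close together, whereas the knockout extract of litter 121 stood above all others and that of litter 116 below. The ratios were -0.05, -1.06 and 2.55 (0.48 ± 1.86 on average, SD, n = 3, limma, unadjusted p = 0.575, adjusted p = 0.916). The probes A_52_P101333 and A_52_P265889 gave 2.49 and 1.97 in litter 121 and -1.06 and -0.81 in litter 116. The dim probe A_52_P73456, at the far end of the gene, gave 0.36 in litter 121 and -0.09 in litter 116. Ordered by litter, Sap18 thus followed the 3 downstream Lats2 probes, lowest in litter 116 and highest in litter 121. Litter 121 was the litter on its own slide, so that slide and litter cannot be told apart, although both genotypes shared every array.

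In litter 121, 9 of all 806 members were seen in the knockout extract alone (1.12%, against 1.13% of all gene probes). Some transcripts that were not kept were brighter in that extract than in wild type, on both sides of Lats2. On the lower side these included Myh7, a cardiac myosin heavy chain, with ratios of 3.07 and 2.68 at its 2 probes, Otx2, a homeobox factor seen in that litter in the knockout extract alone and at least 5.56-fold brighter, and the amino acid transporter gene Slc7a8, above background on 4 of 4 knockout arrays and on 1 of 4 wild-type arrays of that litter. Fgf9, a secreted fibroblast growth factor, has 1 probe at 0.39 Mb that was not kept. Its log2 signals were 9.28 in the Lats2-/- extract and 6.49 in the Lats2+/+ extract of litter 121, and 5.97 to 6.01 in the other 4 extracts. It was well above background on 4 of 4 arrays in the knockout and on 2 of 4 in the wild-type channel of litter 121. The transcript model ENSMUST00000074654, also at 0.39 Mb, was above background in litter 121 in the knockout channel alone, at least 2.68-fold brighter than wild type. Of the 16 probes within 1 Mb that were not kept, these alone were 2-fold or more apart in any litter. Between Sap18 and Fgf9 the picture was mixed. Ska3, a kinetochore gene 85 kb from Lats2, had ratios of -0.17, -0.53 and 0.43 in litters 112, 116 and 121. Mrpl57, a mitochondrial ribosomal protein gene, had -0.15, -0.25 and -0.01. The 3 probes of the palmitoyltransferase gene Zdhhc20 had mean ratios of -0.01 to 0.03, and the 2 probes of Micu2, a regulator of mitochondrial calcium uptake, had means of 0.11 and 0.17.

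**Figure D1:**
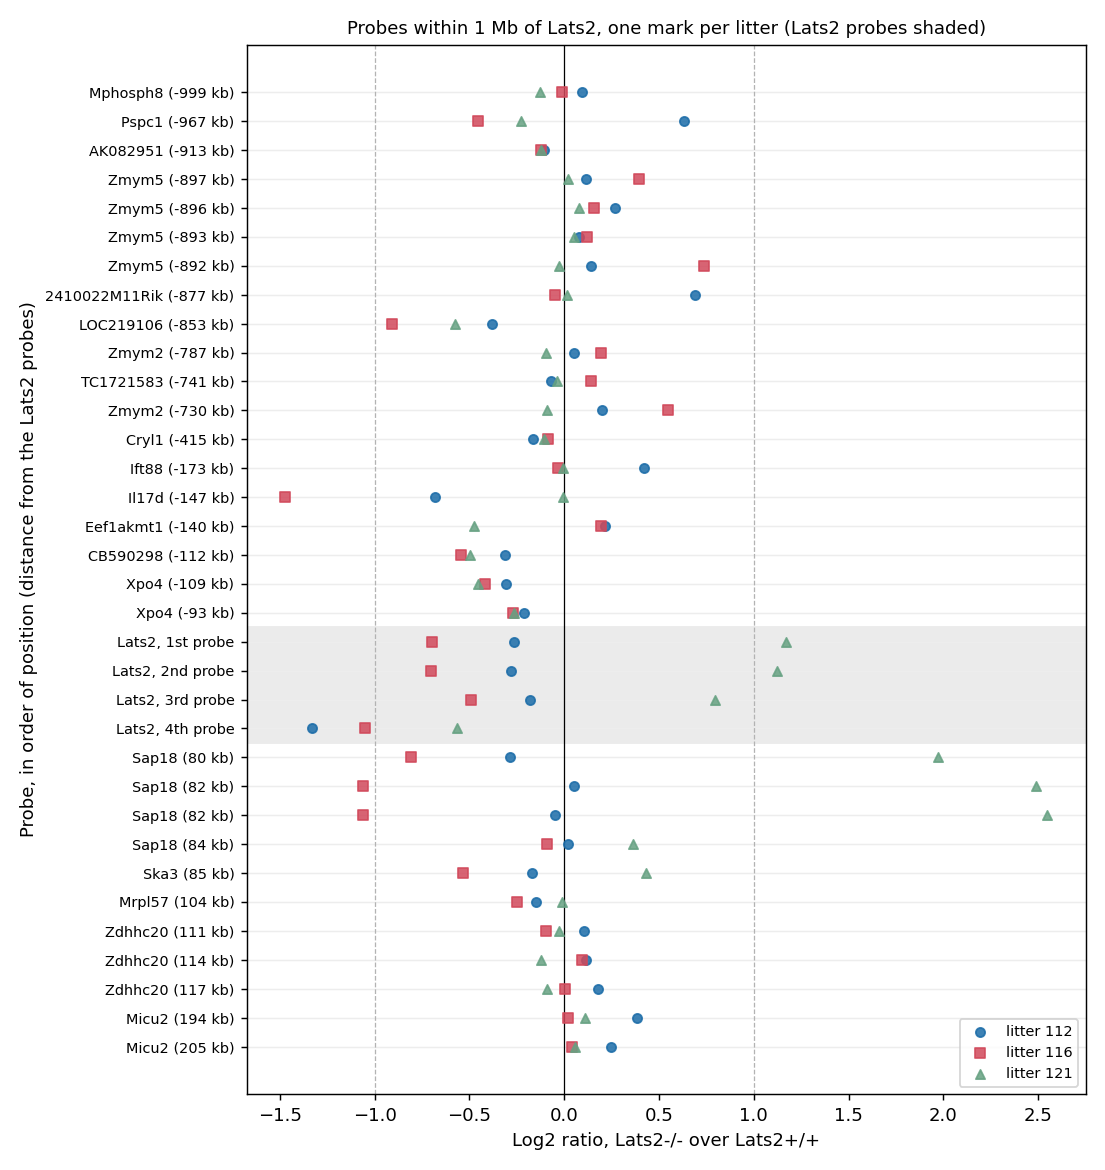
Log2 ratio (x axis, Lats2-/- over Lats2+/+) of the 30 kept probes within 1 Mb of Lats2, in order of position from lower to higher coordinates, with 1 mark per litter. Shaded rows are the 4 Lats2 probes and dashed lines mark 2-fold. The Xpo4 marks lie together below 0, whereas 3 of the 4 Sap18 probes run from -1.06 or -0.81 in litter 116 up to 1.97 to 2.55 in litter 121.

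The remaining neighbours within 1 Mb had small ratios or ratios that differed from litter to litter. In all, 46 probes lay within 1 Mb, of which 30, from 19 genes, were kept, and 11 were above background on no array. The connexins Gja3, Gjb2 and Gjb6, which form gap junctions, had no kept probe: 6 of their 7 probes were above background on no array, and 1 Gjb2 probe was seen only in the knockout extract of litter 116, at least 1.58-fold brighter. Il17d, a cytokine of the interleukin-17 family 147 kb from Lats2, had log2 signals of 9.97, 8.58 and 11.06 in the knockout and 10.65, 10.05 and 11.06 in the wild-type extracts. Its ratios were -0.68, -1.47 and -0.01 (limma, unadjusted p = 0.091, adjusted p = 0.726), so that it was below wild type in litters 112 and 116 and level in litter 121. The 4 probes of Zmym5 had mean ratios of 0.09 to 0.28, and the 2 kept probes of Zmym2 had 0.05 and 0.22; both encode zinc finger proteins of the MYM type. Means between -0.12 and 0.22 were found for Cryl1, a crystallin-like dehydrogenase, for Ift88, needed for building cilia, for the paraspeckle gene Pspc1, for Mphosph8, which reads methylated histone H3, for the lysine methyltransferase gene Eef1akmt1, for 2410022M11Rik and for the transcripts AK082951 and TC1721583. None of these had an unadjusted p under 0.05 in limma.

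Over the whole stretch, no member passed the adjusted threshold of 0.05, and 0.0% of all kept probes did, with a smallest adjusted p of 0.634. An unadjusted p under 0.05 was reached by 38 of 410 members (9.27%), against 6.84% of all kept probes. Of these, 17 were higher in Lats2-/- cells (4.15%, against 3.56% of all kept probes) and 21 were lower (5.12%, against 3.29%). From the processed signals of the scanner software, 12 were higher and 24 lower (8.78%, against 6.66%). The balance of directions moved with the litters, at 6 higher and 16 lower without litter 112, 15 and 10 without litter 116 and 17 and 11 without litter 121. With the filter set to all 6 extracts above background, 13 were higher and 20 lower of 355 (9.3%, against 7.18%). A mean of at least 2-fold with that p was found for 2 members, both probes of Ptk2b (0.488%, against 0.835% of all kept probes), and for 12, of which 5 higher and 7 lower, with processed signals (2.93%, against 2.43%). No member was at least 2-fold in 1 direction in every litter, against 0.243% of all kept probes. For 32 members (7.8%, against 6.13% of all kept probes) the signals of the 3 knockout extracts lay entirely above or below those of the 3 wild-type extracts, 13 above and 19 below. These shares were near those of the array as a whole.

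The sign of the ratio was the same in all 3 litters for 147 of the 410 members (35.9%), against 29.7% of all kept probes, 27.1% of 373 kept probes on the rest of chromosome 14 and 29.6% on the other chromosomes. Of the members 63 were higher and 84 lower, and of all kept probes 3388 and 3343. That split was 55 and 112 with processed signals (40.7%, against 30.3%) and 53 and 94 with median centring. Whole chromosomes ranged from 17.7% (chromosome 12) to 35.8% (chromosome 6), so that the share in the stretch around Lats2 was about that of the highest chromosome. The share was 34.2% at 1 probe per gene, against 4434 of all 14791 genes tested that way. By distance, it was 10 of 19 probes within 1 Mb on the side of lower coordinates, among them both Xpo4 probes and CB590298, and 3 of 11 within 1 Mb on the other side. The other distance classes lay between 31.3% (1 to 5 Mb, higher side) and 39.0% (10 to 20 Mb, higher side). On the higher side the share rose with distance, at 27.3%, 31.3%, 34.8% and 39.0%. On the lower side, going outward, it was 52.6%, 33.7%, 32.3% and 37.0%, so that the sides did not share an order by distance. Several probes fall on 1 gene and neighbouring genes share a litter, so these probes are not independent and no test was made of the shares.

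Median ratios were small at every distance. The median log2 ratio over all members was 0.04, -0.05 and -0.05 in litters 112, 116 and 121. In the distance classes the medians lay between -0.19 (litter 116, 10 to 20 Mb on the lower side) and 0.11 (litter 121, within 1 Mb on the higher side). The class from 1 to 5 Mb on the higher side was below 0 in every litter, at -0.07, -0.06 and -0.10, and none of its 32 probes had an unadjusted p under 0.05. From the processed signals of the scanner software, the mean of that class's litter medians moved from -0.08 to -0.15.

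**Figure D2:**
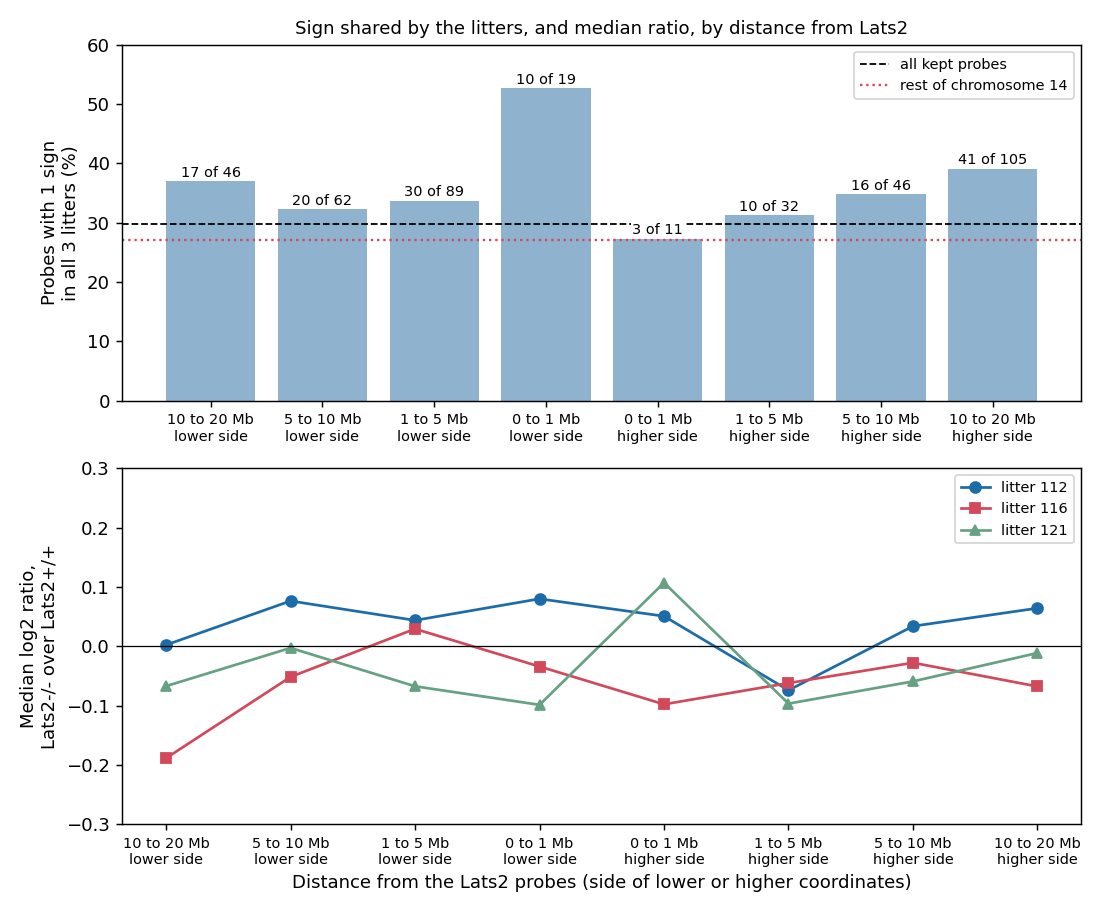
Upper panel, percentage of kept probes with 1 sign in all 3 litters (y axis) in each distance class (x axis), with counts above the bars, the share over all kept probes (dashed) and over the rest of chromosome 14 (dotted). Lower panel, median log2 ratio of each class by litter. The class within 1 Mb on the lower side reaches 10 of 19 probes, and every median lies between -0.19 and 0.11.

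Farther from Lats2, Clu had the smallest p of the stretch. Clu encodes clusterin, a secreted chaperone found in many tissues. Its probe A_51_P367720 (chr14:64935424-64935483, plus strand), 8.26 Mb from Lats2, had log2 signals of 7.72, 8.63 and 11.88 in the Lats2-/- extracts and 6.93, 7.71 and 11.09 in the Lats2+/+ extracts of litters 112, 116 and 121. The level differed between litters by far more than between genotypes, but within each litter the knockout extract was the higher one by nearly the same amount. The ratios were 0.79, 0.92 and 0.79, above 0 on 8 of 8 arrays, on average 0.83 ± 0.08 (SD, n = 3) and 1.78-fold (limma, unadjusted p = 0.00134, adjusted p = 0.634). Leaving out 1 litter gave unadjusted p values of 0.00919 to 0.0123.

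Ptk2b, 8.4 Mb from Lats2 and not far beyond Clu, was lower in every knockout extract. It encodes the tyrosine kinase Pyk2, a relative of focal adhesion kinase that responds to calcium. The probe A_51_P311904 (chr14:65107682-65107741, minus strand) had log2 signals of 7.95, 8.40 and 8.69 in Lats2-/- and 9.45, 9.30 and 9.57 in Lats2+/+ extracts. The wild-type extracts lay within a narrow range and all knockout extracts below it. Its ratios were -1.50, -0.90 and -0.89, on average -1.10 ± 0.35 (SD, n = 3) and 2.14-fold lower (limma, unadjusted p = 0.00376, adjusted p = 0.711). The other probe, A_52_P684647, gave -1.38, -0.85 and -0.90 (limma, unadjusted p = 0.00285, adjusted p = 0.709). Both probes were below 0 on 8 of 8 arrays, and each had an unadjusted p of 0.00987 to 0.0142 when 1 litter was left out.

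Dock5, an exchange factor for the small GTPase Rac at 10.0 Mb, was lower with all 4 of its kept probes below the unadjusted threshold. The brightest, A_52_P88983, had ratios of -0.28, -0.76 and -1.69 in litters 112, 116 and 121, and the means of the 4 probes lay between -0.57 and -0.91 (limma, unadjusted p from 0.0267 to 0.0459, adjusted p = 0.711 for each). Litter 121 had the lowest ratio at each Dock5 probe. Each of the 4 probes lost the unadjusted threshold without 1 or more litters.

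Among genes of replication, the centrosome and the cell cycle, 17 genes with 25 probes were measured. Of these, 1 probe was higher and 2 were lower at an unadjusted p under 0.05 in limma. These counts are to be read against the 3.56% higher and 3.29% lower among all kept probes. The median of the mean ratios was -0.15, against 0.01 over all kept probes. Wdhd1, a replication factor that links the DNA helicase to polymerase alpha, had ratios of -0.91, -1.15 and -0.66 at A_52_P655890, averaging -0.90 ± 0.25 (SD, n = 3, limma, unadjusted p = 0.00346, adjusted p = 0.711). Its other probe had -0.27, -0.66 and -0.21 (limma, unadjusted p = 0.0534, adjusted p = 0.711), lower in each litter but by less. Haus4, a subunit of the augmin complex that seeds spindle microtubules, had ratios of -1.41, -0.76 and -0.23. Parp4, the poly(ADP-ribose) polymerase of vault particles, was higher at 1 of 2 probes, with ratios of 0.52, 0.21 and 0.27. The mitotic genes Pbk (-0.54, -1.30 and 0.22) and Cdkn3 at A_52_P30984 (-1.13, -0.91 and -0.04) were below wild type in litters 112 and 116 but not in the same way in litter 121. The list's litter medians were -0.17, -0.49 and 0.06.

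In the group of matrix, protease and secreted factor genes, 14 genes with 22 probes were measured, and 1 probe, that of Clu, passed the unadjusted threshold. The median of the mean ratios was 0.33, with litter medians of 0.55, 0.46 and 0.00. Tnfrsf10b, a death receptor for the ligand TRAIL, had ratios of 0.44 to 0.95 in litters 112 and 116 at its 3 probes and of 0.00 to 0.13 in litter 121, with unadjusted limma p values from 0.0572 to 0.0839. The metabolic and mitochondrial group had 16 genes with 25 probes, a median of -0.13, and 1 probe lower, Esd A_51_P199367. Among the serine protease, T cell receptor and blood cell genes, 9 genes with 11 probes gave 2 probes higher, Gzmd and Tcra, and a median of 0.14. The transcription and chromatin group had 16 genes with 28 probes, 1 higher (Hmbox1) and a median of 0.11. The neuronal group had 7 genes with 10 probes, 1 higher (Dpysl2) and a median of 0.08. The proteasome, ubiquitin and translation group had 13 genes with 21 probes, none past the unadjusted threshold in limma and a median of 0.02. The list of connexins and other neighbours of Lats2 had 17 genes with 29 probes measured, none of them a connexin. It had 1 higher (Parp4), 1 lower (Xpo4) and a median of 0.09. The adjusted threshold was passed by none of the probes of these lists, and 0 to 2 probes per list in 1 direction are to be read against the 3.56% higher and 3.29% lower among all kept probes.

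Esd and Lrch1 are neighbours whose probes lie 5.26 kb apart, 16.8 Mb from Lats2, and their mean ratios had opposite signs. Esd encodes esterase D, and Lrch1 a protein with leucine-rich repeats. Esd was bright, with log2 signals of 14.59, 13.32 and 12.97 in the knockout and 14.70, 14.45 and 14.12 in the wild-type extracts at A_51_P199367. Its ratios were -0.11, -1.12 and -1.15 (-0.79 ± 0.59 on average, SD, n = 3, limma, unadjusted p = 0.0427, adjusted p = 0.711), so that the difference lay in litters 116 and 121. The other kept Esd probes, A_51_P199364 and A_52_P611000, had means of -0.76 and -0.42 and did not pass (limma, unadjusted p = 0.0554 and 0.169). The Lrch1 probe A_52_P222135 had ratios of 0.75, 0.29 and 1.11 (0.72 ± 0.41 on average, SD, n = 3, limma, unadjusted p = 0.0228, adjusted p = 0.711), while the other Lrch1 probe, A_52_P389957, had -0.06, 0.03 and 0.20. The signal for Lrch1 thus rested on 1 of its 2 probes. In limma, the unadjusted p of Esd A_51_P199367 was 0.161 without litter 116 and 0.153 without litter 121. That of Lrch1 A_52_P222135 was 0.0936 without litter 112 and 0.0748 without litter 121.

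Further genes, most of them in no list and named after their values were seen, passed the unadjusted threshold with means under 2-fold. Higher were Extl3, a glycosyltransferase of heparan sulfate synthesis (0.17, 0.86 and 0.95 in litters 112, 116 and 121), and Abhd4, a lipase that acts on N-acyl phospholipids (0.84, 0.46 and 0.46). Txndc16, which encodes a thioredoxin-domain protein, had ratios of 0.75, 0.45 and 0.52. Hmbox1, Dpysl2, Ttc5, Rab2b, Tcra and Parp4 had means of 0.33 to 0.51 at 1 probe each. For Tcra the wild-type extract of litter 116 was not above background on either array. Phyhip was above background on 8 of 8 arrays in the knockout and on 3 of 8 in the wild-type channel, so that its place among the kept probes came from the knockout extracts, and in litter 112 it was at least 1.77-fold brighter there. Where these genes or Extl3 had other kept probes, these were closer to 0 and did not pass. Lower were the ribosome biogenesis genes Ngdn (-0.37, -0.41 and -0.38) and Nop9 (-0.45, -0.40 and -0.36), which varied little between litters. Slc25a30, a mitochondrial carrier gene, was lower at 2 of its 3 kept probes, with means of -0.41 and -0.29. Oxa1l, which inserts proteins into the mitochondrial inner membrane, was lower at 1 probe (-0.32), not at its other 2 (0.20 and -0.16). Rhobtb2 had a mean of -0.31, AK030738 of -0.44 and TC1656821 of -0.58. The probes named Cdv3 (-0.45) and D5Ertd579e (0.39) are placed on chromosome 14 by the array's mm8 annotation, while RefSeq places both genes on another chromosome. Of the 38 probes, 5 stayed under the unadjusted threshold without each litter in turn, namely Clu, both Ptk2b probes, Wdhd1 A_52_P655890 and Txndc16.

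**Figure D3:**
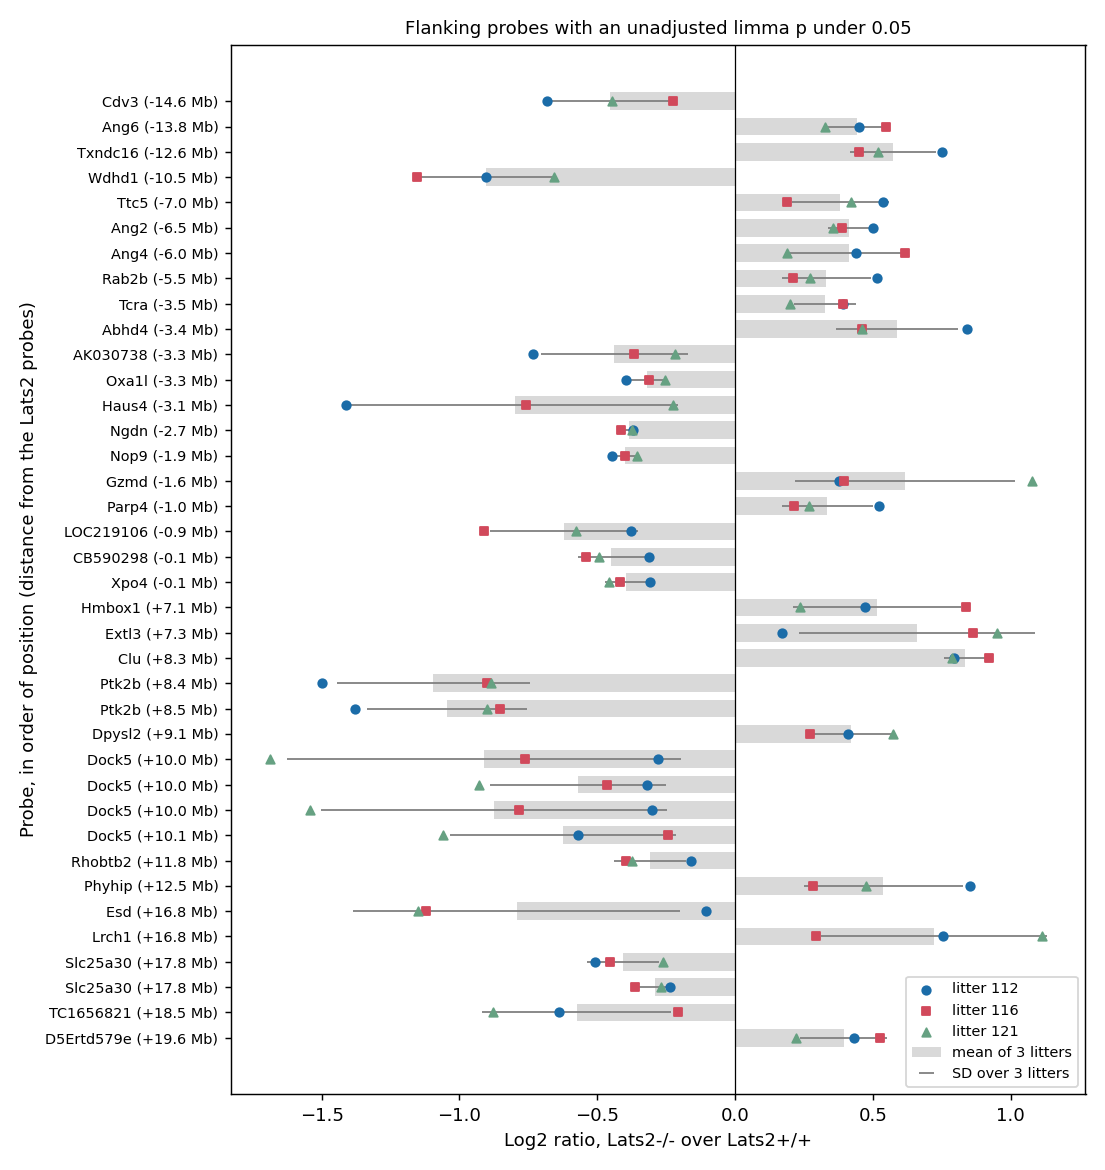
Log2 ratio (x axis, Lats2-/- over Lats2+/+) of the 38 members with an unadjusted limma p under 0.05, in order of position. Grey bars are means of 3 litters, lines their SD, and marks the litters. Clu, Ngdn and Nop9 have litters close together, whereas Dock5, Haus4 and Esd are spread out.

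Angiogenin paralogs were among the members with small positive ratios. Ang2, Ang4 and Ang6 encode secreted ribonucleases related to angiogenin. The probes named for angiogenin and Rnase4 on the array were left out, but the probe it names AI385586, which RefSeq now calls Ang, stayed among the 806 and was not kept, with 3 of 8 arrays above background in each genotype. Ang2 had ratios of 0.50, 0.39 and 0.36, Ang4 at A_51_P502906 had 0.44, 0.61 and 0.19, and Ang6 had 0.45, 0.55 and 0.33. All were dim, with log2 signals of 6.37 to 7.55, and were above 0 on 8 of 8 arrays. Their sequences are near-identical in part, so a probe may also hold signal from a paralog, which was not tested. The granzymes, serine proteases of cytotoxic lymphocytes, form another cluster 1.4 to 1.6 Mb from Lats2. Gzmd at A_51_P159042 had ratios of 0.39 and 1.08 in litters 116 and 121. In litter 112 its wild-type extract was not above background and the knockout extract was at least 1.299-fold brighter, so that its unadjusted p of 0.0342 rests in part on a background signal. The other Gzmd probe was above background on 1 of 8 arrays in each genotype, with ratios of -0.04, 0.08 and -0.03. Within litter 121, Gzmc, Gzme and Gzmb were above background in the knockout channel alone, at least 6.17-fold, 1.43-fold and 1.25-fold brighter than wild type. The pan-leukocyte marker Ptprc was on no array above background in either genotype, and the summed level of the blood cell markers, as log2 of the sum of their signals, was 9.14 to 10.05 in Lats2-/- and 9.40 to 11.16 in Lats2+/+ extracts.

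The members with the widest ratios differed from litter to litter, and the genes named in the rest of this account were chosen after their values were seen. At least 2-fold in litter 112 were 20 members (4.88%, against 3.77% of all kept probes), in litter 116 22 members (5.37%, against 7.71%) and in litter 121 21 members (5.12%, against 6.09%). Together these were 48 members from 35 genes, of which 34 passed 2-fold in 1 litter only and 7 passed it in opposite directions in different litters. Wild-type extracts themselves spanned 2-fold or more for 68 members (16.6%, against 16.3% of all kept probes), and knockout extracts for 61 (14.9%, against 17.4%).

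Loxl2, a lysyl oxidase that cross-links collagen and elastin, had the highest mean ratio of the stretch. At A_51_P275949 its log2 signals were 9.61, 11.26 and 12.57 in the knockout and 7.08, 6.68 and 12.25 in the wild-type extracts of litters 112, 116 and 121. The knockout extract was far above wild type in litters 112 and 116, but the wild-type extract of litter 121 was itself bright. The ratios were 2.54, 4.58 and 0.31 (2.48 ± 2.13 on average, SD, n = 3, limma, unadjusted p = 0.053, adjusted p = 0.711). The unadjusted p was 0.157 without litter 112, 0.129 without litter 116 and 0.00917 without litter 121, the litter with the smallest ratio. The other probe gave 2.29, 4.19 and -0.01. Egr3, an immediate early zinc finger factor, was seen only in the knockout extract of litter 112 within that litter, at least 15.3-fold brighter, and had ratios of 0.68 and 0.39 in litters 116 and 121. The second Egr3 probe was not kept and was above background only in that same extract, at least 1.22-fold brighter.

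Stc1, the secreted glycoprotein stanniocalcin 1, was higher in the wild-type extract of litter 116 and in the knockout extract of litter 121. At A_52_P189970 its log2 signals were 6.01, 6.27 and 12.15 in the knockout and 5.83, 8.57 and 7.63 in the wild-type extracts. In litter 112 none of the 3 Stc1 probes was above background in either genotype. In litter 116 all 3 were above it in wild type alone, at least 1.40-fold to 4.93-fold brighter, and in litter 121 their ratios were 2.87 to 4.51. Bmp4, a bone morphogenetic protein, had ratios of 2.63, -0.76 and 2.52. Lgals3, the lectin galectin 3, had -2.60, 3.21 and -0.39, and Ripk3, a kinase of necroptosis, had -2.34, 3.36 and 1.37. For Bmp4, Lgals3 and Ripk3 the ratio crossed 0 between litters, and none had an unadjusted p under 0.05 in limma.

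Nefl and Nefm, neighbouring neurofilament genes 10.4 Mb from Lats2, were bright in the wild-type extract of litter 116. At the Nefl probe A_51_P339934 the log2 signals were 7.74, 6.47 and 6.04 in the knockout and 6.13, 11.52 and 6.05 in the wild-type extracts, giving a ratio of -5.05 in litter 116. In litter 112 it was above background in the knockout extract alone, at least 2.96-fold brighter, and in litter 121 in neither extract. The second Nefl probe, the Nefm probe and the adjoining transcript A230070E04Rik were seen in litter 116 only in wild-type cells, at least 13.0-fold, 3.68-fold and 2.37-fold brighter. In the whole array the neural markers Gfap and Sox2 were above background on no array, and 3 of 5 neural markers were above background in each genotype. Their summed level on the same scale was 9.90, 10.27 and 12.92 in the knockout and 10.76, 9.76 and 10.99 in the wild-type extracts of litters 112, 116 and 121. The sum was highest in the knockout extract of litter 121. The part of other cell types in these values was not tested.

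**Figure D4:**
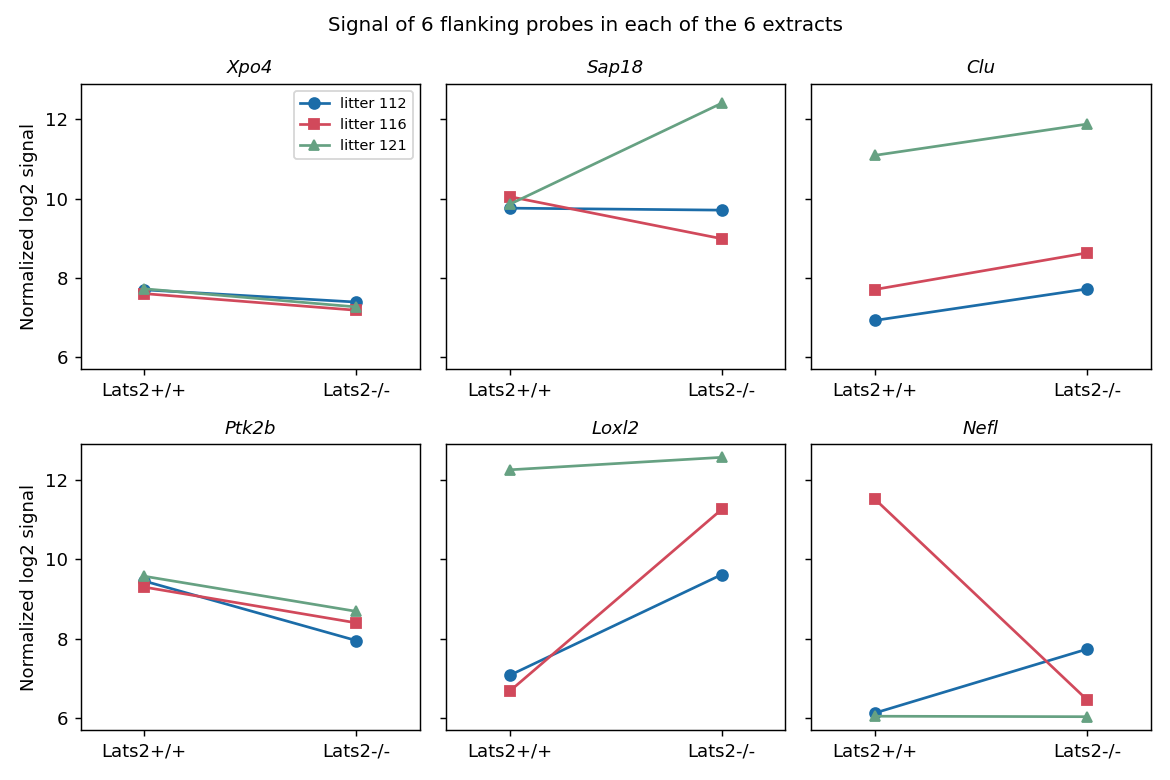
Normalized log2 signal (y axis) of 6 flanking probes in the wild-type and knockout extract of each litter, joined by a line per litter. Xpo4, Clu and Ptk2b run the same way in all 3 litters. Loxl2 also runs upward in each, but by ratios from 0.31 to 4.58. Sap18 and Nefl change direction between litters, with ratios of up to 2.55 and down to -5.05.

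The litters agreed weakly over the members, while arrays of 1 litter agreed closely. Across the 410 members, which are probes and not replicates, Pearson's r was 0.127 for litters 112 and 116, 0.21 for 112 with 121 and -0.07 for 116 with 121, and Spearman's rho was 0.3, 0.304 and 0.104. Over all kept probes, r was 0.133, 0.0607 and -0.00132, and rho was 0.123, 0.0821 and 0.0555. Arrays of the same litter had r of 0.936 to 0.989 over the members, so that the spread of these ratios lay between the litters rather than between arrays. Among the 106 genes with 2 or more kept probes the range of the mean ratio within a gene had a median of 0.13, against 0.10 over 5400 genes elsewhere. No member gene exceeded 1, against 0.944% of the genes elsewhere.

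Detection in 1 genotype only also went by litter. Of all 806 members, 16 were seen in litter 112 in the knockout extract alone and 0 in the wild-type extract alone, which were 6 and 17 in litter 116 and 9 and 1 in litter 121. Over all 41174 gene probes the numbers were 515 and 264, 446 and 737, and 465 and 228. Of the 396 members that were not kept, 262 were above background on no array.

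**Figure D5:**
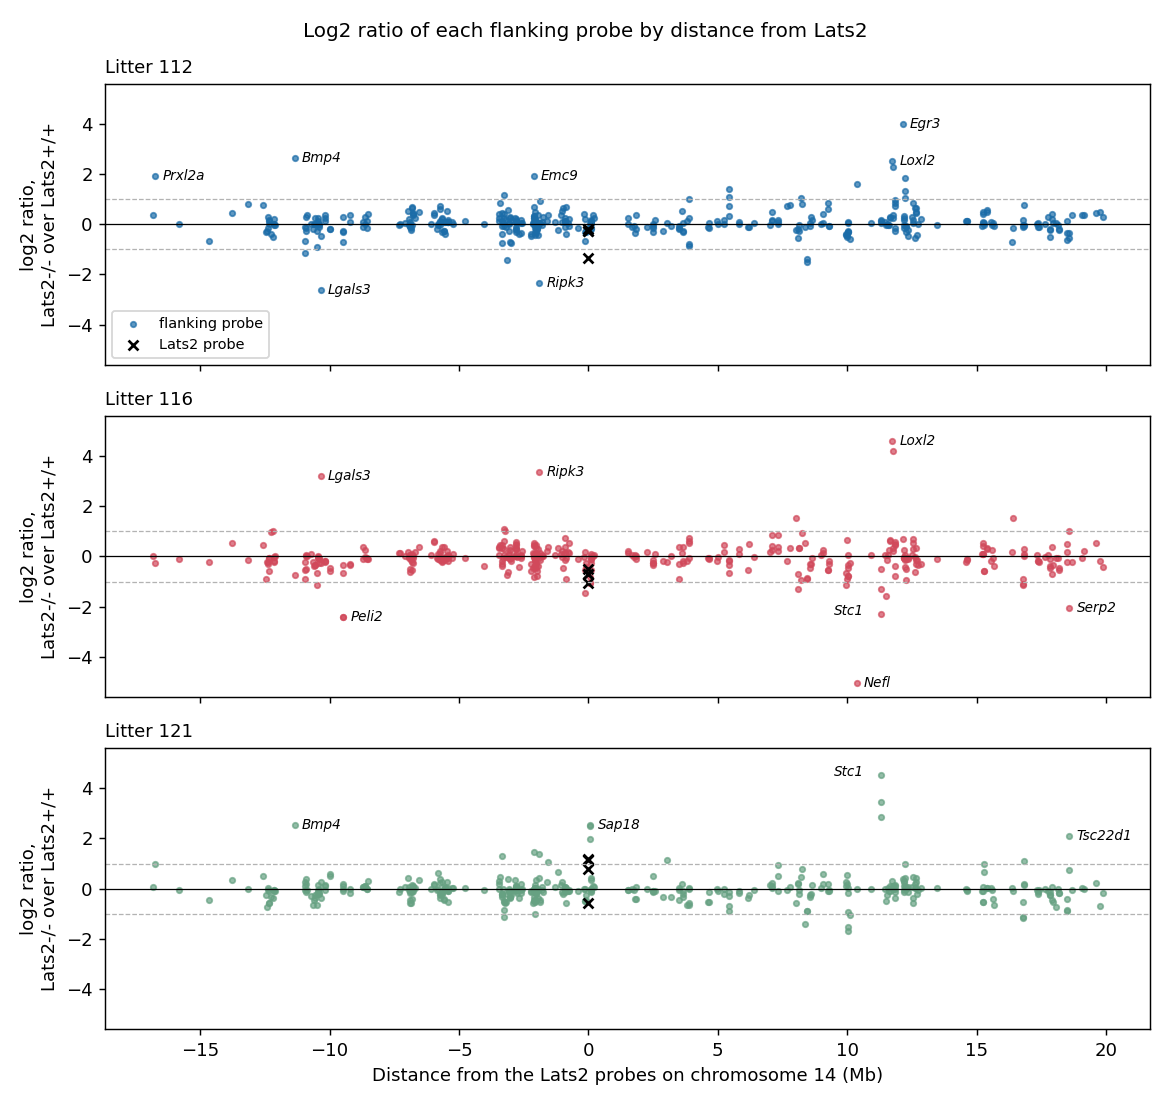
Log2 ratio (y axis, Lats2-/- over Lats2+/+) of the 410 kept members by distance from the Lats2 probes (x axis, in Mb), 1 panel per litter, with crosses for the Lats2 probes and dashed lines at 2-fold. Most probes lie near 0 at all distances, and the named genes at the extremes, such as Loxl2, Stc1, Nefl, Lgals3 and Ripk3, change from panel to panel.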

How the data were processed

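The authors hybridised whole mouse genome arrays, and the deposited scanner files hold spot intensity with local background on a linear scale, extracted with Agilent Feature Extraction, for which the submitters' notes and the file headers name different versions. The deposited value table holds log10 ratios that the authors' software had dye normalized; it matched the scanner ratios within 0.005 once turned to Lats2-/- over Lats2+/+. Here, mean intensities were corrected with normexp (offset 50), loess normalized and averaged per litter in limma 3.58.1 (R 4.3.3), and the 3 litter ratios were tested against 0 (lmFit, eBayes, two-sided) with Benjamini-Hochberg adjustment over 22642 kept probes. Both genotypes of a litter share its arrays, so the ratio holds the pairing. Signals per extract were taken after Aquantile. The number of litters limits precision, since the arrays of a litter repeat the same extracts. Nothing in the labels says more of how the clones arose, so p-values measure the spread between these litters. The test was checked on simulated data. Probe positions are the array's mm8 annotation; 370 of 410 members matched a RefSeq entry, and 71 had their symbol updated. By rule, genes were named if kept within 1 Mb of Lats2, if 2-fold or more apart and under an unadjusted p of 0.05, or 2-fold in every litter, if in 1 of 8 gene lists and past that p, or if in a run of 3 or more neighbouring genes with 1 sign and a mean of at least 0.5, of which there was none. The other genes named, among them Dock5, Lrch1, the further genes past that p, Fgf9, Myh7, Otx2, Slc7a8, Pbk, Cdkn3, Tnfrsf10b and the genes of single litters, were picked with their values in view. The members and lists were chosen with earlier results of these data known. A value written as at least N-fold sets the brighter mean against the higher of the dim probe's signal and the lowest signal well above background. Alternatives were other offsets, signals, centring, filters, tests, windows, slide means and left-out litters.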

Additional observations from a re-analysis of the deposited data

How the results depend on the processing

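With 3 litters, precision is limited and no member passed the adjusted threshold under any alternative run. Of the 38 members with an unadjusted p under 0.05, 27 kept it under offset 16, processed signals, the value table and median centring, 11 lost it under 1 or more, and 0 changed sign. That count was 58 of 806 (7.2%, against 6.37% of all probes) with no filter, 14 (3.41%, against 2.45% of all probes) with no replicate block, in which 6 extracts formed 2 groups, 22 within 10 Mb (8.49%) and 12 within 5 Mb (7.95%), both against 6.84%, and 22 to 28 without 1 litter (5.37% to 6.83%, against 5.06% to 6.43%). It split into 2 higher and 12 lower with no replicate block and 19 and 15 with slide as a block. The count at least 2-fold with that p, 2 in the report, was 12 (2.93%, against 2.43%) with processed signals and 12 with the value table, 9 with slide as a block (2.2%, against 1.85%), 1 at 1 probe per gene (0.368%, against 1.05%), 0 within 5 Mb and 6 to 9 without 1 litter (1.46% to 2.2%, against 1.15% to 1.65%). The count at least 2-fold in every litter, 0 in the report, was 1 with offset 16 (0.244%, against 0.358% of all probes), 3 with processed signals and 3 with the value table (0.732%, against 0.813%), and 2 to 3 without 1 litter (0.488% to 0.732%, against 0.742% to 1.02%), where fewer litters must agree. The count of members with 1 sign in all litters, 147 in the report, was 249 of 806 with no filter (30.9%, against 27.9%), 93 of 272 at 1 probe per gene (34.2%, against 4434 of 14791), 89 of 259 within 10 Mb (34.4%) and 53 of 151 within 5 Mb (35.1%), both against 29.7%, and 233 to 238 without 1 litter (56.8% to 58.0%, against 52.3% to 54.2%). Without the 2 probes whose RefSeq gene lies elsewhere it was 145. For this count, that setting, the windows, 1 probe per gene and median centring were chosen after seeing the data. The mean of the litter medians from 1 to 5 Mb on the higher side moved from -0.08 to -0.15 with processed signals and with the value table and to -0.0327 with no filter, and that from 10 to 20 Mb on the higher side from -0.005 to -0.0811 with processed signals and -0.0812 with the value table. The cause of these moves was not tested.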

Other observations

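Whole chromosomes other than 14 had median ratios away from 0 in single litters. The median log2 ratio of the 870 kept probes on chromosome 12 was 0.28 in litter 112, against -0.07 and -0.15 in the other litters. That of the 913 probes on chromosome 15 was -0.28 in litter 116, against -0.03 and -0.05 in litters 112 and 121, and that of the 1360 probes on chromosome 4 was 0.22 in litter 116, against -0.09 and 0.06. Chromosome 14 had 0.07, -0.05 and -0.06.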
